A study of Mus musculus with 18 samples.

Results

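Complex I genes were followed in the hearts of mice that had been made short of thyroid hormone and then given it back. The genes were the 45 rows, of 24341 in the expression table of all samples, whose symbol begins with Ndufa, Ndufb, Ndufc, Ndufs, Ndufv, Ndufab or Ndufaf. The 36 structural subunits and the 7 assembly factors (Ndufaf1 to Ndufaf7) are described apart. The other 2 genes are Ndufa4, whose protein is now counted as a subunit of complex IV, and its paralogue Ndufa4l2. All 45 were measured above the filter on low values described below. The complex I subunits encoded by mitochondrial DNA were not analysed here.

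Complex I (NADH:ubiquinone oxidoreductase) takes electrons from NADH, passes them along iron-sulphur clusters to ubiquinone, and pumps protons across the inner mitochondrial membrane. Its peripheral arm reaches into the matrix and holds the N module, where NADH is oxidised, and the Q module, where ubiquinone is reduced. Its membrane arm holds the proton channels, whose core is encoded by mitochondrial DNA and is wrapped by nuclear-encoded accessory subunits. Assembly factors help to build the modules and are absent from the finished enzyme. The heart relies on oxidative phosphorylation for most of its ATP, and thyroid hormone is known to raise mitochondrial capacity there. Roles given below are those known for the human or bovine proteins.

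The 18 libraries came from hearts of C57BL/6 mice aged 12 weeks, in 6 groups of 3. The groups were mice labelled as a cardiac-specific knockout of Med13 (cKO) on a PTU diet followed by T3, WT mice on the PTU diet followed by T3, cKO mice on the PTU diet, WT mice on the PTU diet, cKO mice on normal chow and WT mice on normal chow. PTU (propylthiouracil) blocks the making of thyroid hormone, and T3 (triiodothyronine) is its active form. Mice went on the diets when 8 weeks old and stayed on them for 4 weeks; the T3 groups also had 3 injections of T3, 1 a day. Both hypothyroid and T3-treated mice had thus eaten PTU. The sources used here do not give the driver of the knockout. Nor do they say outright that each library is from its own mouse, so the spread that the p-values measure is that between these samples and may be technical.

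Values are FPKM, fragment counts scaled by transcript length and by the size of the library, which can be compared between genes. Differences are log2 fold changes of FPKM + 1, a scale that understates changes of genes with low values. Each comes with its standard error (SE) and an adjusted p from a limma fit to the 12587 genes that reached 1 FPKM in 3 libraries or more, with Benjamini-Hochberg adjustment over all of them. A gene is said to rise, fall or be called only at an adjusted p under 0.05. Med13 averaged 5.83 ± 0.713 FPKM in the libraries labelled cKO and 5.87 ± 0.596 FPKM in WT libraries (SD, n = 9 each), so the gene-level value did not separate the genotypes, and cKO is used here as the label gives it. Markers of cardiomyocytes were present in every library (all 6 of the list at 1 FPKM or more), as were all 6 fibroblast, all 5 endothelial, all 6 macrophage and all 4 smooth muscle markers. RNA from a whole heart cannot tell fewer cells of a type apart from less RNA per cell.

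Transcripts of structural subunits were abundant and those of assembly factors scarce. Averaged over the 18 libraries, structural subunits ranged from 129.9 FPKM for Ndufa11, a membrane arm subunit at the contact with complex III, to 1623 FPKM for Ndufb8, a subunit of the distal membrane arm. Their median was 606 FPKM and the highest stood 12.5 times above the lowest. Assembly factors ranged from 10.7 FPKM for Ndufaf5, which hydroxylates a Q module subunit, to 42.6 FPKM for Ndufaf1, which helps to build the membrane arm, with a median of 25.4 FPKM. No assembly factor came near the lowest structural subunit. Ndufa4 averaged 2745 FPKM, above every structural subunit, while its paralogue Ndufa4l2 averaged 22.9 FPKM.

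The structural subunits of a library moved together. Their summed level was 28690, 32680 and 27739 FPKM in cKO PTU+T3 hearts, 25728, 22212 and 31085 FPKM in WT PTU+T3 hearts, 19420, 17062 and 23254 FPKM in cKO PTU hearts, 21117, 19535 and 26187 FPKM in WT PTU hearts, 27266, 27682 and 23415 FPKM in cKO chow hearts and 24755, 26422 and 21481 FPKM in WT chow hearts. The cKO groups with and without T3 did not overlap, and the WT groups did. In 7 libraries all 36 subunits lay on 1 side of their group mean: above it in library 3 of WT PTU+T3, library 3 of WT PTU and library 2 of cKO PTU+T3, and below it in library 2 of WT PTU+T3, library 2 of WT PTU, library 2 of cKO PTU and library 3 of WT chow. A count of subunits that share a direction is therefore not a count of independent observations.

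**Figure D1:**
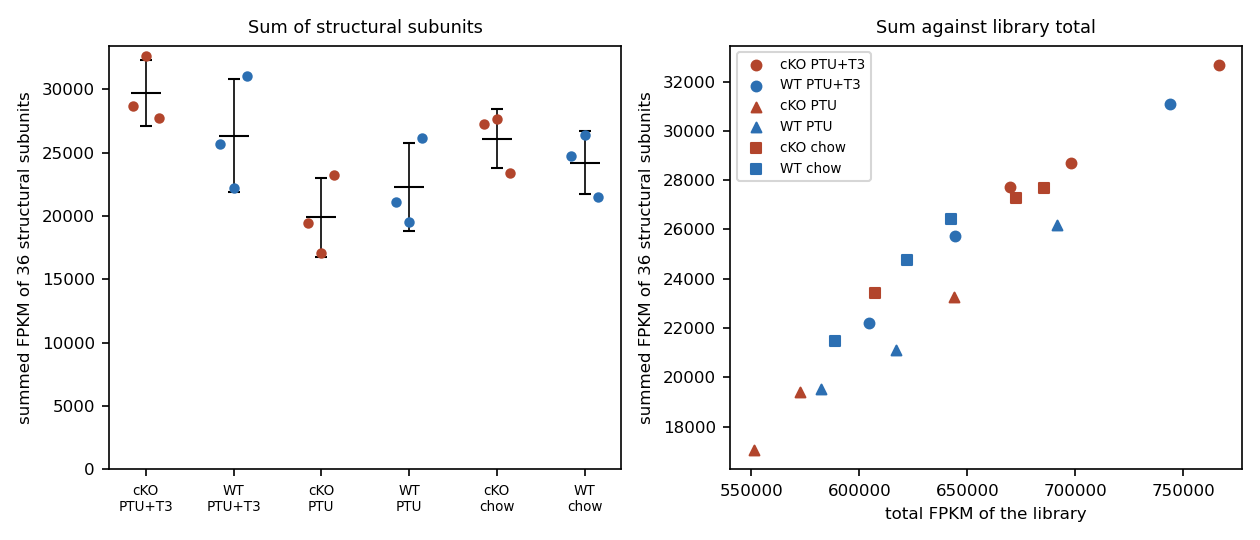
Summed FPKM of the 36 structural subunits in each library (left, points; black marks give the mean and SD of 3) and the same sum against the total FPKM of the library (right). Libraries with a larger total tended to hold a larger sum, and the sum lies between 17062 FPKM (library 2 of cKO PTU) and 32680 FPKM (library 2 of cKO PTU+T3).

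That sum moved with the total FPKM of a library, which ran from 551113 to 766347 FPKM, as the plot of sum against total shows. As a share of the total, structural subunits made up 4.11% to 4.26% in cKO PTU+T3 hearts, 3.67% to 4.18% in WT PTU+T3 hearts, 3.10% to 3.61% in cKO PTU hearts, 3.36% to 3.79% in WT PTU hearts, 3.86% to 4.05% in cKO chow hearts and 3.65% to 4.11% in WT chow hearts. Summed fibroblast markers were 1694 FPKM in library 2 of WT PTU+T3 and 1768 FPKM in library 2 of cKO PTU, the lowest libraries of their groups, against 688 to 748 FPKM and 764 to 766 FPKM in the other libraries of those groups. Summed cardiomyocyte markers were lowest in the same libraries, at 26641 FPKM in the first and 27298.5 FPKM in the second. Library 2 of WT PTU and library 3 of WT chow, the lowest of their groups in structural subunits, had the highest fibroblast sums of those groups too (1180.1 FPKM and 1179.5 FPKM). So did library 3 of cKO chow, again the lowest of its group (907.8 FPKM). The cKO PTU+T3 group went the other way. Its library 3 was lowest in structural subunits and also in fibroblast markers (653.7 FPKM).

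Levels of some other cells' markers differed with treatment. Summed smooth muscle and pericyte markers were 416 to 548 FPKM in cKO PTU+T3 hearts, 221 to 285 FPKM in cKO PTU hearts and 329.8 to 408.5 FPKM in cKO chow hearts, and 518 to 748 FPKM in WT PTU+T3 hearts, 199.5 to 234 FPKM in WT PTU hearts and 343 to 415 FPKM in WT chow hearts. No 2 treatments overlapped in either genotype. Summed macrophage markers were 238 to 285 FPKM in cKO PTU+T3 hearts, 88.3 to 244 FPKM in cKO PTU hearts and 187 to 231 FPKM in cKO chow hearts, and 246 to 340.5 FPKM in WT PTU+T3 hearts, 77.8 to 128 FPKM in WT PTU hearts and 154 to 271 FPKM in WT chow hearts. PTU libraries lay below the others without overlap in WT, while in cKO library 2 of PTU overlapped them. Summed red blood cell markers were 603 to 1108 FPKM in cKO PTU+T3 hearts, 343 to 857.5 FPKM in cKO PTU hearts and 1106 to 1897 FPKM in cKO chow hearts, where PTU lay below chow without overlap, and 769 to 1138 FPKM in WT PTU+T3 hearts, 573 to 1329 FPKM in WT PTU hearts and 1109 to 1378.5 FPKM in WT chow hearts, where they overlapped. Summed cardiomyocyte markers overlapped between T3 and PTU in both genotypes. They were 40578 to 52909 FPKM in WT PTU hearts, above the 28727 to 37443 FPKM of WT chow hearts without overlap. Between cKO PTU and cKO chow hearts they overlapped. Summed atrial markers ran from 29.4 to 2559 FPKM over all libraries and varied widely within groups, and an alternative without the highest library of each group is given where it changes a count. The library left out was not always high in these markers: in cKO chow its sum was 213.5 FPKM. That alternative also left fewer libraries in every group, so atrial markers and group size cannot be told apart in it. The part of these markers in the results was not tested.

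T3 after PTU raised some complex I transcripts in both genotypes. Largest were the rises of Ndufs4, Ndufb10 and Ndufs8 among structural subunits and of Ndufaf1, Ndufaf4 and Ndufaf5 among assembly factors. In cKO hearts 25 of 36 structural subunits and 6 of 7 assembly factors rose and none fell, where 24.9% of all tested genes rose. In WT hearts 13 of 36 structural subunits and 5 of 7 assembly factors rose and none fell, where 22.3% of all tested genes rose. The median log2 fold change of structural subunits was 0.57 in cKO and 0.25 in WT hearts, that of assembly factors was 0.96 and 0.59, and that of all tested genes was 0.00 in both. All 13 subunits and all 5 factors called in WT were among those called in cKO. Both sets of calls used the same estimate of each gene's spread, and the overlap over all genes is not given here. The test of whether the genotypes differed in this response called no gene.

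Without overlap between groups of 3, PTU+T3 libraries stood above PTU libraries for 26 of 36 structural subunits and 6 of 7 assembly factors in cKO hearts, where 28.5% of all genes did, and for 10 of 36 and 4 of 7 in WT hearts, where 25.4% of all genes did. For WT structural subunits the count without overlap was near the share of all genes. The WT count of called structural subunits was less stable than the cKO count. It was 6 without library 2 of WT PTU, 7 without library 1 of WT PTU or library 3 of WT PTU+T3 and 8 without library 1 of WT PTU+T3, and 6 without the library highest in atrial markers of each group, while the cKO count stayed between 21 and 28 whichever library was left out. With libraries scaled to the same total (TPM), 14 structural subunits rose and 2 fell in WT, and 23 rose and 1 fell in cKO. That scaling moved the median of all genes to -0.07 in WT and -0.24 in cKO. It moved the split of all called genes in cKO to 1634 higher and 4635 lower, against 3137 higher and 2740 lower with FPKM as deposited. In WT that split became 2090 higher and 2860 lower, against 2802 higher and 2743 lower.

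**Figure D2:**
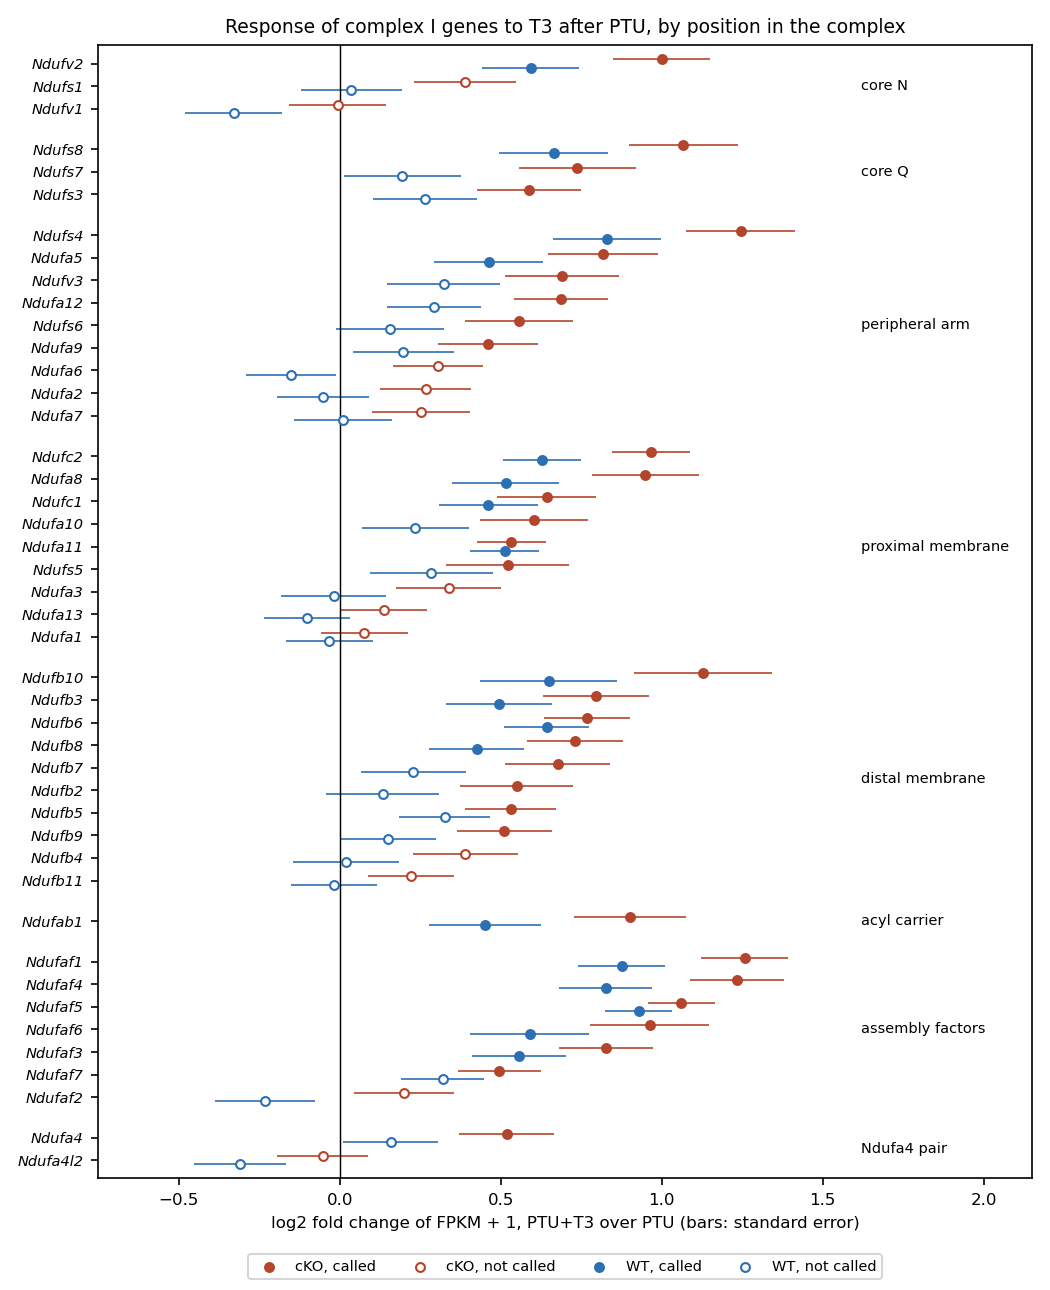
Log2 fold change of FPKM + 1 between PTU+T3 and PTU for the genes named on the axis, in cKO (red) and WT (blue) hearts, with standard errors as bars; filled points passed the adjusted p of 0.05. Genes are grouped by place in the complex, and the highest and lowest changes lie in different groups. In cKO, Ndufs4, Ndufb10 and Ndufs8 stand above 1, while Ndufv1 and Ndufa1 stand near 0.

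The N module, which oxidises NADH, split into subunits that rose and subunits that did not. Ndufv2, which holds an iron-sulphur cluster beside the entry site, was at 519, 578 and 532 FPKM in cKO PTU+T3 hearts against 283, 225 and 313 FPKM in cKO PTU hearts, and at 435, 431 and 529.8 FPKM in WT PTU+T3 hearts against 281, 269.7 and 382 FPKM in WT PTU hearts. Every T3 library was above every PTU library of its genotype. The rise was 0.9998 ± 0.15 in cKO (adjusted p = 5.9e-05) and 0.59 ± 0.15 in WT (adjusted p = 0.0047). Its partner Ndufv1, which binds NADH and the flavin, was at 523, 598 and 572 FPKM in cKO PTU+T3 hearts against 583, 487 and 641 FPKM in cKO PTU hearts, and at 522, 417 and 592 FPKM in WT PTU+T3 hearts against 632, 568 and 714 FPKM in WT PTU hearts. The groups overlapped in both genotypes. Its differences of -0.01 ± 0.15 in cKO (adjusted p = 0.97) and -0.33 ± 0.15 in WT (adjusted p = 0.088) were not called. With libraries scaled to the same total, Ndufv1 was lower with T3 in both, by -0.28 in cKO (adjusted p = 0.025) and -0.40 in WT (adjusted p = 0.0034). Ndufs1, the largest subunit and carrier of several clusters, was at 390.1, 421 and 382 FPKM in cKO PTU+T3 hearts against 343, 241 and 337 FPKM in cKO PTU hearts, and at 377, 323 and 369 FPKM in WT PTU+T3 hearts against 338, 297 and 414 FPKM in WT PTU hearts. Its cKO groups did not overlap, but the difference of 0.39 ± 0.16 missed the threshold (adjusted p = 0.054); in WT it was 0.04 ± 0.16.

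The Q module, which hands electrons to ubiquinone, held 1 subunit that rose in both genotypes and 2 that rose in cKO. Ndufs8, which carries iron-sulphur clusters on the way to ubiquinone, was at 553, 591 and 527 FPKM in cKO PTU+T3 hearts against 255, 229 and 319 FPKM in cKO PTU hearts, and at 472, 416 and 584 FPKM in WT PTU+T3 hearts against 312, 265 and 347 FPKM in WT PTU hearts. The groups did not overlap, and the rise was 1.07 ± 0.17 in cKO (adjusted p = 9.4e-05) and 0.66 ± 0.17 in WT (adjusted p = 0.0048). Ndufs3 and Ndufs7, a carrier of the last cluster of the chain, rose in cKO by 0.59 ± 0.16 (adjusted p = 0.0072) and 0.74 ± 0.18 (adjusted p = 0.0035). In WT their differences were 0.27 ± 0.16 and 0.19 ± 0.18 and were not called. Ndufs3 stood at 732, 819 and 705 FPKM in cKO PTU+T3 hearts against 483, 436 and 589 FPKM in cKO PTU hearts, and Ndufs7 at 951, 1104 and 852 FPKM against 552, 486 and 716 FPKM in the same groups.

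Among the 9 accessory subunits of the peripheral arm, 6 rose in cKO and 2 in WT. Ndufs4, which sits by the N module and is lost in a form of Leigh syndrome, had the largest response of the structural subunits in both genotypes. It was at 324, 357 and 298 FPKM in cKO PTU+T3 hearts against 138, 116 and 159 FPKM in cKO PTU hearts, and at 260.1, 249 and 342 FPKM in WT PTU+T3 hearts against 148, 134 and 198 FPKM in WT PTU hearts. T3 libraries lay above PTU libraries without overlap, and the rise was 1.24 ± 0.17 in cKO (adjusted p = 2.1e-05) and 0.83 ± 0.17 in WT (adjusted p = 0.00091). Both calls held whichever library was left out. Ndufa5 rose in both, by 0.82 ± 0.17 in cKO (adjusted p = 0.0010) and 0.46 ± 0.17 in WT (adjusted p = 0.037). Ndufv3, Ndufa12, Ndufs6 and Ndufa9 rose in cKO by 0.46 to 0.69. Ndufa2, Ndufa6 and Ndufa7 were not called in either genotype. Ndufa2 was at 599, 604 and 558 FPKM in cKO PTU+T3 hearts against 478, 434 and 559 FPKM in cKO PTU hearts, and at 492, 441 and 672 FPKM in WT PTU+T3 hearts against 505, 507 and 635 FPKM in WT PTU hearts. Ndufa7 was at 579, 720.1 and 625 FPKM in cKO PTU+T3 hearts against 522, 465 and 635 FPKM in cKO PTU hearts, and at 559.8, 489 and 688 FPKM in WT PTU+T3 hearts against 533, 507 and 683 FPKM in WT PTU hearts. Ndufa6 was at 1003, 1085 and 956 FPKM in cKO PTU+T3 hearts against 752, 724 and 1011 FPKM in cKO PTU hearts, and at 844, 792 and 948 FPKM in WT PTU+T3 hearts against 860.0, 878 and 1149.6 FPKM in WT PTU hearts. All 3 overlapped between treatments. Ndufa6, which binds the acyl carrier subunit, was the lowest accessory subunit of this arm in WT at -0.15 ± 0.14, and with TPM scaling it was called lower there at -0.22 (adjusted p = 0.032).

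Around the proximal membrane arm 6 of 9 subunits rose in cKO and 4 of 9 in WT. Ndufc2 was at 544, 609.8 and 552 FPKM in cKO PTU+T3 hearts against 268, 273 and 335 FPKM in cKO PTU hearts, and at 475, 432 and 508 FPKM in WT PTU+T3 hearts against 290.0, 275 and 352 FPKM in WT PTU hearts. No T3 library overlapped a PTU library of its genotype, and its rise was 0.97 ± 0.12 in cKO (adjusted p = 1.0e-05) and 0.63 ± 0.12 in WT (adjusted p = 0.00062). Ndufa8, Ndufc1 and Ndufa11 also rose in both genotypes, and Ndufa10 and Ndufs5 in cKO. Ndufa11 rose by 0.53 ± 0.11 in cKO and 0.51 ± 0.11 in WT, the smallest gap between genotypes of the 36. Ndufa1, which is X-linked, was at 561, 602 and 470.3 FPKM in cKO PTU+T3 hearts against 524, 441 and 586 FPKM in cKO PTU hearts, and at 513, 454 and 591 FPKM in WT PTU+T3 hearts against 536, 467 and 588 FPKM in WT PTU hearts. Ndufa13, also known as GRIM-19, was at 439, 508 and 446 FPKM in cKO PTU+T3 hearts against 426, 348 and 505 FPKM in cKO PTU hearts, and at 425, 354 and 472 FPKM in WT PTU+T3 hearts against 423, 422 and 490.3 FPKM in WT PTU hearts. The treatments overlapped for both genes and neither was called: their differences were 0.08 ± 0.14 and 0.14 ± 0.13 in cKO (negative with TPM scaling) and -0.03 ± 0.14 and -0.10 ± 0.13 in WT.

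Around the distal membrane arm 8 of 10 subunits rose in cKO and 4 of 10 in WT. Ndufb10 was at 1774, 2154 and 1458 FPKM in cKO PTU+T3 hearts against 718, 726 and 1020.3 FPKM in cKO PTU hearts, and at 1433, 1163 and 2024 FPKM in WT PTU+T3 hearts against 964, 804 and 1129.9 FPKM in WT PTU hearts. All T3 libraries were higher, with rises of 1.13 ± 0.21 in cKO (adjusted p = 0.00047) and 0.65 ± 0.21 in WT (adjusted p = 0.022). The WT call was lost without library 2 of WT PTU or library 3 of WT PTU+T3 (adjusted p up to 0.12). Ndufb6 was at 665, 728 and 676 FPKM in cKO PTU+T3 hearts against 390.3, 383 and 443 FPKM in cKO PTU hearts, and at 608, 529 and 748 FPKM in WT PTU+T3 hearts against 388, 351 and 464 FPKM in WT PTU hearts. It rose without overlap by 0.77 ± 0.13 in cKO and 0.64 ± 0.13 in WT, and Ndufb3 and Ndufb8 were called in both as well. Ndufb11 was at 791, 787 and 735 FPKM in cKO PTU+T3 hearts against 676, 551 and 775 FPKM in cKO PTU hearts, and at 685, 649 and 801 FPKM in WT PTU+T3 hearts against 683, 653 and 826 FPKM in WT PTU hearts. It overlapped in both, and neither it nor Ndufb4 was called in either genotype. The acyl carrier subunit Ndufab1, which also serves mitochondrial fatty acid synthesis, was at 894, 1043 and 925 FPKM in cKO PTU+T3 hearts against 497, 431 and 618 FPKM in cKO PTU hearts, and at 793, 646 and 984 FPKM in WT PTU+T3 hearts against 542, 509 and 715 FPKM in WT PTU hearts. It rose by 0.90 ± 0.17 in cKO (adjusted p = 0.00054), without overlap. The WT groups overlapped, and the WT call (0.45 ± 0.17, adjusted p = 0.045) was lost without any 1 of 11 libraries (adjusted p up to 0.21).

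**Figure D3:**
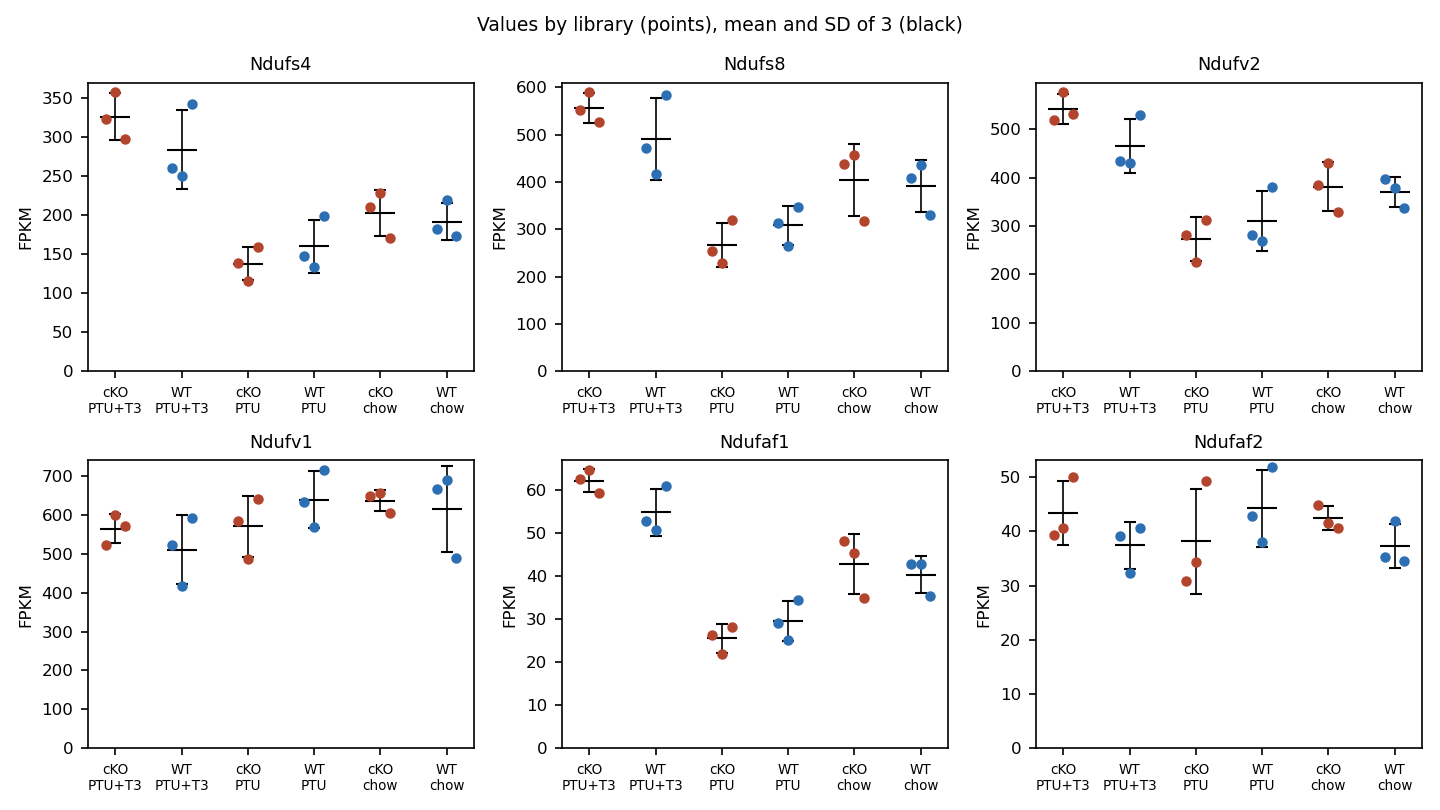
FPKM of 4 structural subunits and 2 assembly factors in every library (points; black marks give the mean and SD of 3), cKO in red and WT in blue. The group means of Ndufs4, Ndufs8, Ndufv2 and Ndufaf1 are highest with T3 and lowest with PTU in both genotypes, while the T3 and PTU libraries overlap for Ndufv1 and Ndufaf2.

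Assembly factors, though scarce, had a larger median fold change than structural subunits. Ndufaf1, a member of the assembly complex of the membrane arm, was at 62.6, 64.7 and 59.5 FPKM in cKO PTU+T3 hearts against 26.4, 21.9 and 28.3 FPKM in cKO PTU hearts, and at 52.8, 50.7 and 60.99 FPKM in WT PTU+T3 hearts against 29.1, 25.1 and 34.5 FPKM in WT PTU hearts. The groups were far apart in both genotypes, with rises of 1.26 ± 0.14 in cKO (adjusted p = 2.4e-06) and 0.88 ± 0.14 in WT (adjusted p = 9.5e-05). Ndufaf4 was at 37.6, 39.2 and 34.8 FPKM in cKO PTU+T3 hearts against 15.8, 13.3 and 16.7 FPKM in cKO PTU hearts, and at 29.5, 28.5 and 37.8 FPKM in WT PTU+T3 hearts against 17.95, 16.8 and 17.6 FPKM in WT PTU hearts. Its partner Ndufaf3, with which it brings the Q module to the membrane, was at 53.3, 55.8 and 50.6 FPKM in cKO PTU+T3 hearts against 27.7, 27.2 and 34.2 FPKM in cKO PTU hearts, and at 42.3, 39.4 and 57.5 FPKM in WT PTU+T3 hearts against 30.7, 27.1 and 35.3 FPKM in WT PTU hearts. Both rose without overlap, Ndufaf4 by 1.23 ± 0.15 in cKO and 0.83 ± 0.15 in WT, and Ndufaf3 by 0.83 ± 0.15 in cKO and 0.56 ± 0.15 in WT. Ndufaf5 was at 14.8, 18.6 and 13.3 FPKM in cKO PTU+T3 hearts against 6.93, 6.06 and 7.70 FPKM in cKO PTU hearts, and at 13.8, 14.4 and 14.4 FPKM in WT PTU+T3 hearts against 6.69, 6.75 and 7.53 FPKM in WT PTU hearts. It had the smallest adjusted p of the 45 genes in both, with rises of 1.06 ± 0.10 in cKO (adjusted p = 8.6e-07) and 0.93 ± 0.10 in WT (adjusted p = 3.9e-06).

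Ndufaf6, an early assembly factor, was at 23.6, 25.7 and 23.8 FPKM in cKO PTU+T3 hearts against 10.9, 10.04 and 15.7 FPKM in cKO PTU hearts, and at 15.6, 19.9 and 24.7 FPKM in WT PTU+T3 hearts against 12.9, 10.2 and 15.7 FPKM in WT PTU hearts. The cKO groups were apart and the WT groups overlapped slightly; it rose by 0.96 ± 0.19 in cKO and 0.59 ± 0.19 in WT, and the WT call was lost without library 2 of WT PTU or library 3 of WT PTU+T3 (adjusted p up to 0.090). Ndufaf7, a methyltransferase, was at 20.8, 20.3 and 18.1 FPKM in cKO PTU+T3 hearts against 13.8, 12.3 and 14.97 FPKM in cKO PTU hearts, and at 18.1, 18.4 and 19.00 FPKM in WT PTU+T3 hearts against 13.3, 12.1 and 19.4 FPKM in WT PTU hearts. It rose in cKO (0.49 ± 0.13, adjusted p = 0.0052), a call that TPM scaling ended (adjusted p = 0.063), and was not called in WT (0.32 ± 0.13, adjusted p = 0.056). Ndufaf2, a paralogue of the subunit Ndufa12 that holds its place during assembly, was at 39.3, 40.6 and 50.04 FPKM in cKO PTU+T3 hearts against 30.9, 34.4 and 49.2 FPKM in cKO PTU hearts, and at 39.1, 32.4 and 40.6 FPKM in WT PTU+T3 hearts against 42.8, 38.04 and 51.9 FPKM in WT PTU hearts. The groups overlapped and neither difference was called (0.20 ± 0.16 in cKO, negative with TPM scaling, and -0.23 ± 0.16 in WT).

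Assembly factors that the symbol rule does not cover gave like counts. Of 8 tested, 7 rose in cKO and 5 in WT, with a median of 0.65 in cKO and 0.41 in WT, where 24.9% of all tested genes rose in cKO and 22.3% in WT. Tmem70 rose by 1.03 ± 0.10 in cKO and 0.70 ± 0.10 in WT, and Timmdc1, which anchors intermediates in the membrane, by 1.15 ± 0.21 and 0.78 ± 0.21. Acad9, a partner of Ndufaf1, rose by 0.54 ± 0.09 in cKO and 0.47 ± 0.09 in WT. Ecsit, another partner, rose in cKO by 0.66 ± 0.16 and was not called in WT (0.25 ± 0.16, adjusted p = 0.23). Nubpl, which delivers iron-sulphur clusters, was the exception in both, at 0.04 ± 0.13 in cKO and -0.12 ± 0.13 in WT. Of the 4 subunits of complex II, the other entry point to ubiquinone, Sdhc and Sdhd rose in cKO (0.45 ± 0.16 and 0.65 ± 0.12) and Sdhd in WT (0.43 ± 0.12), while Sdha and Sdhb were not called in either. These 2 and 1 of 4 stand beside the same shares of all genes.

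Ndufa4 was at 3278, 3418 and 3109 FPKM in cKO PTU+T3 hearts against 2285, 1953 and 2657 FPKM in cKO PTU hearts, and at 2541, 2535 and 3425 FPKM in WT PTU+T3 hearts against 2335, 2331 and 2921 FPKM in WT PTU hearts. It rose in cKO without overlap (0.52 ± 0.15, adjusted p = 0.0086) and was not called in WT (0.16 ± 0.15, adjusted p = 0.41). Ndufa4l2, known to be induced by low oxygen, was at 22.3, 23.3 and 24.1 FPKM in cKO PTU+T3 hearts against 23.3, 25.3 and 23.97 FPKM in cKO PTU hearts, and at 16.9, 16.4 and 25.02 FPKM in WT PTU+T3 hearts against 22.2, 21.7 and 28.2 FPKM in WT PTU hearts. It was not called in either (-0.05 ± 0.14 in cKO and -0.31 ± 0.14 in WT), but with TPM scaling it fell in both (adjusted p = 0.037 in cKO and 0.018 in WT). The library kit does not mark strand, and the exons of Ndufa4l2 overlap those of Shmt2, with which it shares 1 locus in the table.

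Since the subunits of a library moved together, each gene was also measured relative to the median structural subunit of its library, a measure chosen after the values were seen. On that scale many of the same subunits were called in both genotypes. In cKO hearts 11 of 36 structural subunits were relatively higher and 9 relatively lower with T3, where 6.37% of all genes were higher and 52.9% lower. In WT hearts 13 were relatively higher and 10 lower, where 9.3% of all genes were higher and 25.5% lower. The relatively lower count was thus below the share of all genes in cKO and near it in WT. On this scale the median of all genes was -0.46 in cKO and -0.18 in WT. The subunits called higher in cKO were all called higher in WT and made up 84.6% of the WT calls. Those called lower in cKO were all called lower in WT, where they made up 90.0% of the calls. Again both genotypes used the same estimate of each gene's spread, and the overlap over all genes is not given here. A scale set by the subunits themselves must place some above and some below, so the counts say only which subunits parted beyond their spread.

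The subunits relatively higher in both genotypes were Ndufs4, Ndufb10, Ndufs8, Ndufv2, Ndufc2, Ndufa8, Ndufab1, Ndufa5, Ndufb3, Ndufb6 and Ndufb8. Among those relatively lower in both were Ndufv1, Ndufa1, Ndufa13, Ndufb11, Ndufa7, Ndufa2, Ndufa6 and Ndufa3. Ndufs4 was relatively higher by 0.70 ± 0.09 in cKO and 0.62 ± 0.09 in WT, and Ndufv1 differed by -0.55 ± 0.09 in cKO and -0.54 ± 0.09 in WT. In cKO the value of Ndufv1 lay near the median of all genes (-0.46). Both groups hold subunits of the N module, of the rest of the peripheral arm and of both ends of the membrane arm, so neither is 1 module. Assembly factors parted as well: Ndufaf1, Ndufaf3, Ndufaf4, Ndufaf5 and Ndufaf6 were relatively higher in both and Ndufaf2 relatively lower in both, at -0.33 ± 0.13 in cKO and -0.44 ± 0.13 in WT. Some of these calls were weak. Ndufaf6 was called in WT in 5 of the 18 fits that left out 1 library (adjusted p up to 0.17), Ndufa1 in WT in 6 of 18 (adjusted p up to 0.18) and Ndufa7 in WT in 12 of 18 (adjusted p up to 0.085). The Ndufaf2 call was lost in cKO without library 1 or 2 of cKO PTU+T3 or library 2 or 3 of cKO PTU (adjusted p up to 0.17), and in WT without library 3 of WT PTU+T3 (adjusted p = 0.058). The WT count of relatively lower subunits was 5 without library 1 of WT PTU or library 3 of WT PTU+T3 and 6 without library 2 of WT PTU. Without the library highest in atrial markers of each group, 7 subunits were relatively higher and 6 lower in cKO, and 5 higher and 2 lower in WT.

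**Figure D4:**
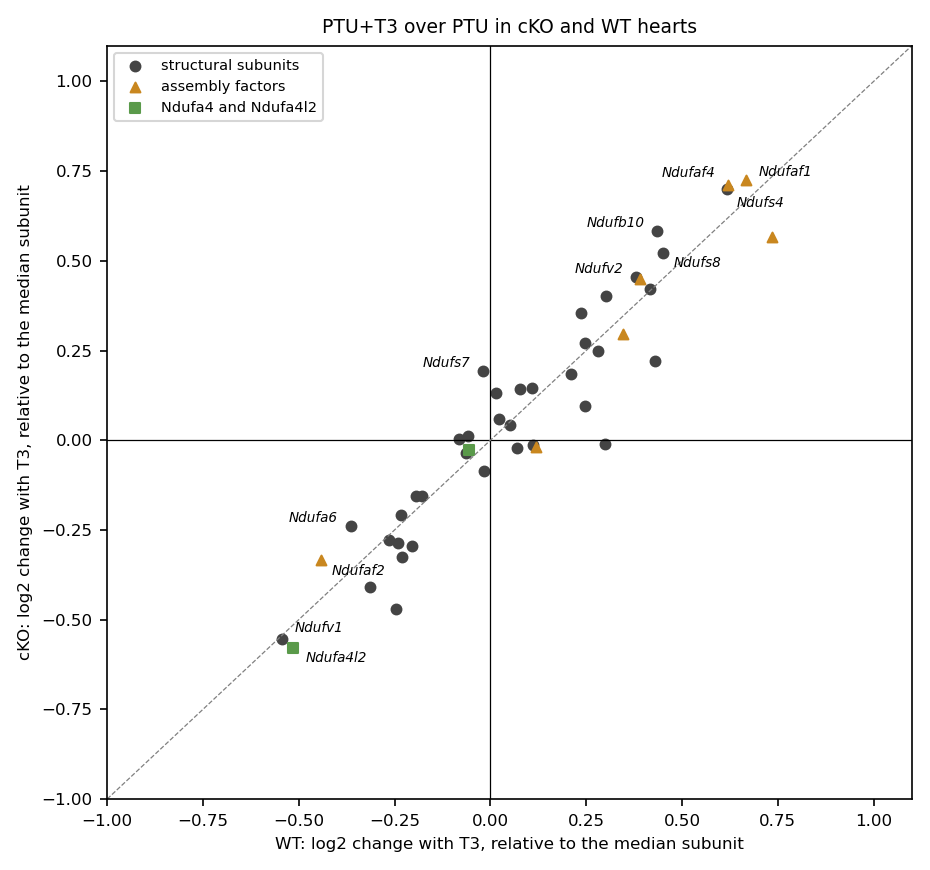
Log2 change with T3 (PTU+T3 over PTU) relative to the median structural subunit, in cKO hearts (vertical axis) against WT hearts (horizontal axis), for the 36 structural subunits (circles), 7 assembly factors (triangles), Ndufa4 and Ndufa4l2 (squares); the dashed line marks equal change. Ndufs4 (0.70 in cKO, 0.62 in WT) lies at the upper right and Ndufv1 (-0.55 and -0.54) at the lower left.

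Across the 36 structural subunits the T3 responses of cKO and WT hearts, which share no library, correlated with a Pearson r of 0.931 and a Spearman rho of 0.913, and across the 7 assembly factors with an r of 0.957. For the response to PTU the r across structural subunits was 0.629. These describe the order of genes, which share libraries within a genotype and are not independent replicates. The same correlation over all genes is not given here, so the values do not set these genes apart from others.

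Ratios within a library show the same parting without any scaling, since the total cancels; the pairs were chosen after their values were seen and are given as a description. The ratio of Ndufv2 to Ndufv1, partners in the tip of the N module, was 0.992, 0.967 and 0.930 in cKO PTU+T3 hearts, 0.834, 1.03 and 0.894 in WT PTU+T3 hearts, 0.485, 0.462 and 0.488 in cKO PTU hearts, 0.444, 0.475 and 0.535 in WT PTU hearts, 0.595, 0.658 and 0.544 in cKO chow hearts and 0.595, 0.551 and 0.689 in WT chow hearts. T3 libraries were highest, PTU libraries lowest and chow libraries between them, with no overlap between treatments. The ratio of Ndufs8 of the Q module to Ndufv1 was 1.06, 0.987 and 0.921 in cKO PTU+T3 hearts, 0.905, 0.998 and 0.986 in WT PTU+T3 hearts, 0.437, 0.470 and 0.498 in cKO PTU hearts and 0.494, 0.467 and 0.486 in WT PTU hearts. The T3 and PTU libraries again lay apart, in both genotypes. A ratio shows unequal change and not that either gene was steady.

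**Figure D5:**
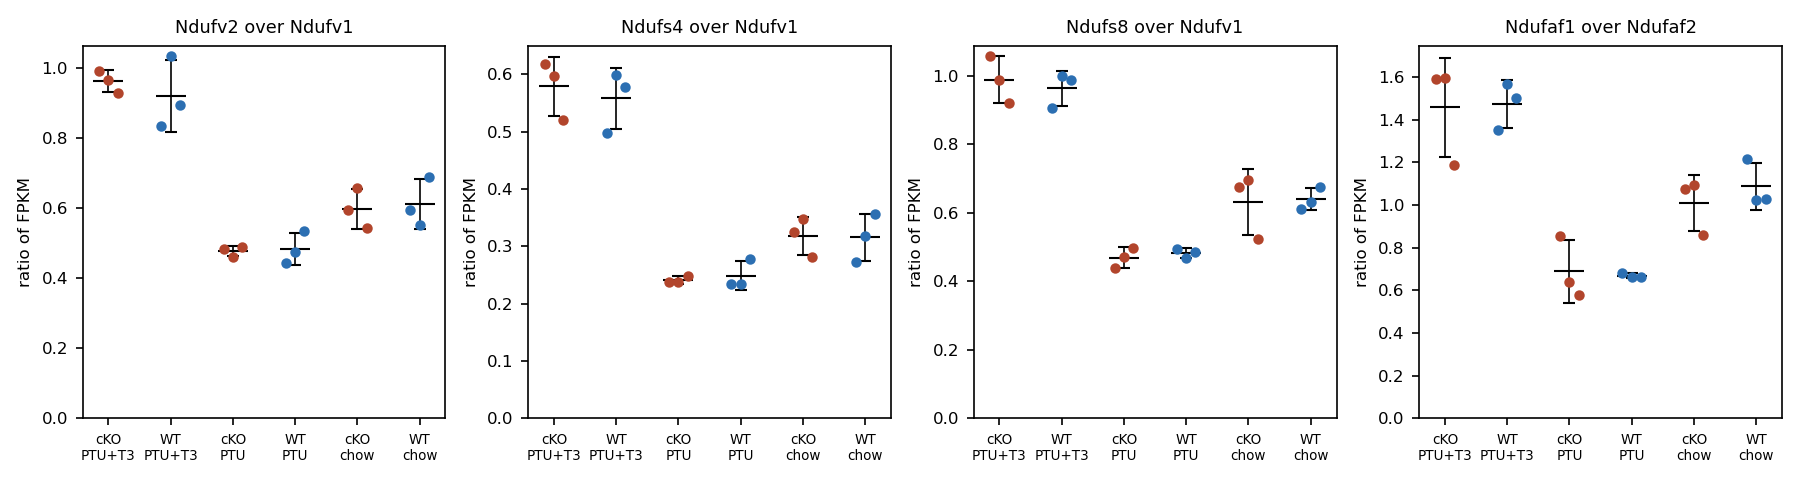
Ratio of FPKM between 2 genes of a library, for 3 pairs of structural subunits and 1 pair of assembly factors (points; black marks give the mean and SD of 3), cKO in red and WT in blue. In each panel the PTU+T3 libraries lie above the PTU libraries; the ratio of Ndufv2 to Ndufv1 lies between 0.834 and 1.03 with T3 and between 0.444 and 0.535 with PTU.

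Ndufs8 and Ndufv1, on opposite sides of that parting, lie on the same chromosome. In the GRCm38 annotation Ndufs8 lies at chr19:3908863-3912774 and Ndufv1 at chr19:4007384-4012806, both on the minus strand and 94610 bases apart. Promoter sequence was looked at because the members moved together, and 39 of the 45 genes matched a RefSeq promoter (GRCm38.p6; 250 bases before to 50 after the gene's start). The promoters of the 3 structural subunits with the highest log2 fold change with T3 in both genotypes, Ndufs4, Ndufb10 and Ndufs8, are shown first. That of Ndufv1, with the lowest (most negative) in both, is last. They lie at chr13:114388045-114388344, chr17:24724374-24724673, chr19:3912725-3913024 and chr19:4012706-4013005, all on the minus strand. Capitals mark matches to the motifs named after them: that of YY1 in Ndufs4, of NRF1 (reverse strand) in Ndufb10 and of ETS factors such as GABP (reverse strand) in Ndufs8. In that order they begin at 35, -26 and 15 bases from the gene's start, so those in Ndufs4 and Ndufs8 lie after it.
Ndufs4: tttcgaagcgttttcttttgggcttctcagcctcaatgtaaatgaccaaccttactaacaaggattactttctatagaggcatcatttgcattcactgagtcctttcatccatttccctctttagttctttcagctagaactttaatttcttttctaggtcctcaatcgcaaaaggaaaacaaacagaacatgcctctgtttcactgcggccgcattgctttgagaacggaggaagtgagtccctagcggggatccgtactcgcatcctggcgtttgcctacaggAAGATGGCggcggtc
Ndufb10: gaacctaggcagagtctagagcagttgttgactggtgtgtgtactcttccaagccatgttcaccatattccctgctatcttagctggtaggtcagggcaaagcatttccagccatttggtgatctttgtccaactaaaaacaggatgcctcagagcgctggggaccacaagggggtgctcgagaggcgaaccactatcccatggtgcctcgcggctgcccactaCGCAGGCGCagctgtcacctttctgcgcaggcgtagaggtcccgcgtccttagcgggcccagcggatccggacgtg
Ndufs8: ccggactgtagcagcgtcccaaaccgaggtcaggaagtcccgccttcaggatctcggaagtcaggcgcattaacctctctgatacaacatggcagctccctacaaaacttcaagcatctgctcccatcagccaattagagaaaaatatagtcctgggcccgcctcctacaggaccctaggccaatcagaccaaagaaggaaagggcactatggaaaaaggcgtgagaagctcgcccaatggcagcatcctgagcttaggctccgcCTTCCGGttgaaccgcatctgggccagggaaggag
Ndufv1: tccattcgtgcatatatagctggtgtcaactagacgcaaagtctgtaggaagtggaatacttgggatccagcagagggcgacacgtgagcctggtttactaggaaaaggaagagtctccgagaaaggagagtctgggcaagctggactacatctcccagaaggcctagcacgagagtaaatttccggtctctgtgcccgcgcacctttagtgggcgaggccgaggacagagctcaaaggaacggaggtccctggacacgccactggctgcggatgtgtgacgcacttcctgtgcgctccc

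The motifs searched, on both strands, were GCGCNTGCG for NRF1, AAGATGGC for YY1, CCGGAAG for ETS factors and AAGGTCA for ERR, all named for regulators of mitochondrial genes. Of the 32 structural subunits with a promoter, 9 (28.1%) held the NRF1 letters, against 6.59% of 27025 promoters of that length, and 7 (21.9%) held the YY1 letters, against 2.88%. The ETS letters were in 4 (12.5%), against 9.12%, and the ERR letters in 3 (9.38%), against 4.66%. Matches of different motifs overlapped in 0 of the 39 promoters. Of 6 assembly factors with a promoter, 2 held the NRF1 letters and 1 the ETS letters. The median log2 fold change in cKO was 0.56 for the 9 subunits with the NRF1 letters and 0.64 for the 23 without, and 0.64 for the 7 with the YY1 letters and 0.60 for the 25 without. In WT those medians were 0.29 and 0.27 for NRF1 and 0.20 and 0.29 for YY1. For the ETS letters the medians with and without them were 0.72 and 0.58 in cKO and 0.45 and 0.29 in WT, over 4 and 28 subunits, and for the ERR letters 0.52 and 0.68 in cKO and 0.13 and 0.32 in WT, over 3 and 29. No test was run on these medians. A match is a run of letters and not a shown binding site.

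Transcripts of some regulators of mitochondrial genes moved with the hormone too, and not all one way. Of 8 such genes, 3 rose and 2 fell with T3 in cKO, and 3 rose and 5 fell in WT, where 24.9% of all tested genes rose and 21.8% fell in cKO, and 22.3% rose and 21.8% fell in WT. Esrra, encoding ERR alpha, rose by 0.88 ± 0.11 in cKO (adjusted p = 7.7e-06) and 0.43 ± 0.11 in WT (adjusted p = 0.0044), and Ppargc1b and Tfam rose in both. Ppargc1a, encoding the coactivator PGC-1 alpha, and Yy1 fell in both. The change of Ppargc1a was -1.20 ± 0.25 in cKO (adjusted p = 0.0010) and -1.55 ± 0.25 in WT (adjusted p = 0.00014). Nrf1 was not called in cKO (0.10 ± 0.09, adjusted p = 0.37) but fell in WT, where its mean was 4.84 FPKM with T3 and 5.86 FPKM on PTU. Esrrg and Gabpa likewise fell in WT and were not called in cKO.

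With PTU alone, set against chow, the assembly factors Ndufaf1, Ndufaf4 and Ndufaf5 and the subunit Ndufb6 fell in both genotypes. In cKO hearts 11 of 36 structural subunits and 3 of 7 assembly factors fell, where 9.59% of all tested genes fell. In WT hearts 1 of 36 structural subunits (Ndufb6) and 3 of 7 assembly factors fell, where 8.76% of all tested genes fell. There the structural count was not above the share of all genes. No subunit or factor rose in either genotype. The median log2 fold change of structural subunits was -0.40 in cKO and -0.14 in WT, that of assembly factors -0.44 and -0.17, and that of all tested genes 0.00 in both.

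The assembly factors that fell were Ndufaf1, Ndufaf4 and Ndufaf5 in both genotypes. Ndufaf1 was at 26.4, 21.9 and 28.3 FPKM in cKO PTU hearts against 48.2, 45.4 and 34.96 FPKM in cKO chow hearts, and at 29.1, 25.1 and 34.5 FPKM in WT PTU hearts against 42.97, 42.8 and 35.4 FPKM in WT chow hearts. Its change was -0.72 ± 0.14 in cKO (adjusted p = 0.0026) and -0.44 ± 0.14 in WT (adjusted p = 0.035). Ndufaf4 was at 15.8, 13.3 and 16.7 FPKM in cKO PTU hearts against 32.9, 26.1 and 19.99 FPKM in cKO chow hearts, and at 17.95, 16.8 and 17.6 FPKM in WT PTU hearts against 22.7, 26.95 and 22.6 FPKM in WT chow hearts, a change of -0.73 ± 0.15 in cKO and -0.44 ± 0.15 in WT. Ndufaf5 was at 6.93, 6.06 and 7.70 FPKM in cKO PTU hearts against 10.4, 11.9 and 11.3 FPKM in cKO chow hearts, and at 6.69, 6.75 and 7.53 FPKM in WT PTU hearts against 9.43, 9.80 and 9.67 FPKM in WT chow hearts. Its change was -0.63 ± 0.10 in cKO (adjusted p = 0.00089) and -0.41 ± 0.10 in WT (adjusted p = 0.012). PTU and chow libraries did not overlap for any of the 3 in either genotype. All 3 calls in cKO, and that of Ndufaf5 in WT, held whichever 1 library was left out. Without the library highest in atrial markers of each group, the Ndufaf5 call in cKO remained (adjusted p = 0.010), while Ndufaf1 and Ndufaf4 in cKO (adjusted p = 0.053 and 0.069) and Ndufaf5 in WT (adjusted p = 0.065) were not called, nor was any structural subunit or other assembly factor. In WT, Ndufaf1 was lost without library 1 or 2 of WT chow or library 1 or 2 of WT PTU (adjusted p up to 0.13), and Ndufaf4 without any 1 of 13 libraries (adjusted p up to 0.16).

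The structural subunits that fell in cKO were Ndufb6, Ndufa12, Ndufa3, Ndufa8, Ndufb8, Ndufc1, Ndufc2, Ndufs4, Ndufs8, Ndufv2 and Ndufv3. Ndufs8 was at 255, 229 and 319 FPKM in cKO PTU hearts against 437, 457 and 316 FPKM in cKO chow hearts, and at 312, 265 and 347 FPKM in WT PTU hearts against 408, 436 and 329 FPKM in WT chow hearts. The groups overlapped in both genotypes. Its change was -0.59 ± 0.17 in cKO (adjusted p = 0.028) and -0.34 ± 0.17 in WT, where it was not called (adjusted p = 0.18). Ndufa3, a small membrane arm subunit, was at 1109.7, 1055 and 1454 FPKM in cKO PTU hearts against 1941, 1859 and 1649 FPKM in cKO chow hearts, without overlap, and its change of -0.60 ± 0.16 (adjusted p = 0.021) was the largest fall of the 36. In WT it was at 1241, 1187 and 1631 FPKM in PTU hearts against 1688, 1723 and 1356 FPKM in chow hearts, which overlapped (-0.24 ± 0.16, not called). Ndufb8 was at 1241, 1034 and 1348 FPKM in cKO PTU hearts against 1900.3, 1827 and 1606 FPKM in cKO chow hearts, without overlap (-0.56 ± 0.15, adjusted p = 0.018). Ndufa12 was at 484, 395 and 437 FPKM in cKO PTU hearts against 611, 751 and 586 FPKM in cKO chow hearts, again without overlap (-0.56 ± 0.15, adjusted p = 0.017).

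Ndufb6, the only structural subunit that fell in both genotypes, was at 390.3, 383 and 443 FPKM in cKO PTU hearts against 579, 592 and 486 FPKM in cKO chow hearts, and at 388, 351 and 464 FPKM in WT PTU hearts against 514, 578 and 493 FPKM in WT chow hearts. The groups did not overlap, with changes of -0.44 ± 0.13 in cKO (adjusted p = 0.034) and -0.40 ± 0.13 in WT (adjusted p = 0.048). The WT call was lost in 13 of the 18 fits that left out 1 library (adjusted p up to 0.16). Ndufa11 was at 103, 101 and 111 FPKM in WT PTU hearts against 139, 137 and 119 FPKM in WT chow hearts, without overlap, and its change of -0.32 ± 0.11 just missed the threshold (adjusted p = 0.051). Ndufa6 had the largest positive difference in WT (0.15 ± 0.14) and was not called.

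The cKO count rests on single libraries. It was 0 without library 2 of cKO PTU or library 2 of cKO chow, 1 without library 1 of cKO chow, 2 without library 1 of cKO PTU and 18 without library 3 of cKO PTU. It was also 0 without the library highest in atrial markers of each group. Library 2 of cKO PTU is the one high in fibroblast and low in cardiomyocyte markers. With TPM scaling 13 fell in cKO and 7 in WT. The split of all called genes in cKO became 1310 higher and 640 lower, against 810 higher and 1207 lower as deposited, and the median of all genes in cKO was 0.14. In WT the split became 759 higher and 953 lower, against 1009 higher and 1102 lower as deposited.

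T3 after PTU was also set against chow, where a few members stood above their chow level, Ndufs4, Ndufc2, Ndufaf1 and Ndufaf5 in both genotypes. In cKO hearts 5 of 36 structural subunits (Ndufa11, Ndufb10, Ndufc2, Ndufs4 and Ndufv2) and 4 of 7 assembly factors (Ndufaf1, Ndufaf3, Ndufaf4 and Ndufaf5) were higher than on chow, where 11.7% of all tested genes were. In WT hearts 2 of 36 (Ndufs4 and Ndufc2) and 2 of 7 (Ndufaf1 and Ndufaf5) were, where 7.68% of all tested genes were. In both genotypes the structural count stood near the share of all genes. None was lower in either, but with TPM scaling Ndufa1, Ndufa3 and Ndufv1 were called lower in both genotypes beside 11 higher in cKO and 3 in WT. Of all 12587 tested genes, 811 were then higher and 1447 lower in cKO, and 525 higher and 1032 lower in WT.

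Ndufs4 was at 324, 357 and 298 FPKM in cKO PTU+T3 hearts against 210.0, 228 and 171 FPKM in cKO chow hearts, and at 260.1, 249 and 342 FPKM in WT PTU+T3 hearts against 182, 219 and 174 FPKM in WT chow hearts. It overlapped in neither, and was higher by 0.69 ± 0.17 in cKO (adjusted p = 0.0088) and 0.56 ± 0.17 in WT (adjusted p = 0.036). The WT call was lost without library 1 or 3 of WT chow or library 3 of WT PTU+T3 (adjusted p up to 0.16). Ndufaf5 was higher by 0.43 ± 0.10 in cKO and 0.51 ± 0.10 in WT, calls that held whichever 1 library was left out. Ndufaf1 was higher by 0.54 ± 0.14 in cKO and 0.43 ± 0.14 in WT, the second called in 7 of the 18 fits that left out 1 library (adjusted p up to 0.16). Without the library highest in atrial markers of each group, no structural subunit and no assembly factor was called in cKO (Ndufaf5 had an adjusted p of 0.078), and no structural subunit and 2 assembly factors were called in WT. Ndufc2 was higher by 0.57 ± 0.12 in cKO and 0.44 ± 0.12 in WT, the second lost without any 1 of 4 WT libraries (adjusted p up to 0.097). The counts moved with single libraries too: 2 structural subunits were called in cKO without library 1 of cKO chow or library 2 of cKO PTU+T3 and 3 without library 3 of cKO chow, whose absence left 1 assembly factor. In WT no structural subunit was called without library 1 or 3 of WT chow or library 3 of WT PTU+T3, and 1 assembly factor was called without any 1 of 10 libraries.

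No complex I gene was called between the hearts labelled cKO and WT hearts. In the limma fit the share of all tested genes called was 0.0% on PTU+T3, 0.0% on PTU, 0.0% on chow, and 0.0% averaged over treatments, while 434, 491, 394 and 209 of the 12587 genes had an unadjusted p under 0.05. Among structural subunits 1 had such a p on PTU+T3 (Ndufc2, 0.27 ± 0.12, adjusted p = 0.98) and none did in the other comparisons, and no assembly factor did in any. The structural medians were 0.18 on PTU+T3, -0.17 on PTU and 0.10 on chow, with 36, 2 and 34 of the 36 above 0, and 0.08, -0.07 and 0.01 with TPM scaling. Since the subunits of a library move together, these signs are not independent. In the authors' deposited tables none of the 36 subunits and none of the 7 factors passed a q of 0.05 between genotypes under any of the 3 treatments, and 1 factor had an unadjusted p under 0.05, on chow.

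The interaction of T3 with genotype, which asks whether T3 changed a gene more in cKO than in WT, called 0.0% of all genes, with 821 at an unadjusted p under 0.05, and that of PTU with genotype called 0.0%, with 805. All 36 structural subunits had a larger T3 response in cKO, with a median excess of 0.35 (0.16 with TPM scaling, where the median of all genes was -0.15), and 35 had a more negative PTU response, with a median of -0.25 (-0.07 with TPM scaling, where the median of all genes was 0.15). None was called in either. The excess for Ndufs4 was 0.42 with a 95% interval of -0.09 to 0.92, and for Ndufaf1 0.38 with an interval of -0.02 to 0.79. Ndufa6 was the only member with an unadjusted p under 0.05 (0.46, interval 0.04 to 0.88, adjusted p = 0.70). Ndufs7 had the largest interaction in both (0.54 for T3, -0.53 for PTU), and neither passed. Both interactions use the same PTU libraries, so they are not separate evidence, and the 25 and 13 calls after T3 do not by themselves show that the genotypes differ.

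The authors' deposited tables, which cover WT treatments and the genotype comparisons, gave like calls at a q under 0.05. For WT PTU+T3 against WT PTU they called 13 structural subunits higher, which are the same 13 as in the limma fit, and the same 5 assembly factors. For WT PTU against WT chow they called Ndufb6 and the factors Ndufaf1, Ndufaf4 and Ndufaf5 lower. For WT PTU+T3 against WT chow they called 3 structural subunits higher (Ndufs4, Ndufc2 and Ndufb10) and 4 factors (Ndufaf1, Ndufaf4, Ndufaf5 and Ndufaf6).

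Some members cannot be read alone. Ndufs5 has a processed pseudogene, BC002163, that is 99.4% identical over 319 bases and has its own row in the table at up to 522 FPKM, above Ndufs5 itself, so reads of the 2 could be split between them and Ndufs5 is uncertain. In all, 17 members share at least 100 bases at 95% identity or more with another annotated transcript. The exons of 17 members overlap those of a gene on the other strand, which the kit does not tell apart, and 7 share a locus in the table with other genes. Among these, Ndufs7 has a locus that it shares with 48 other genes. Ndufb6 has exons that overlap those of Smim27 on the other strand, with 257 of its 659 transcript bases matched at 100% identity. Ndufs4, Ndufs8, Ndufv1 and Ndufb10 have no such overlap or copy. The depth behind these values is not known, since FPKM carry no read totals.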

How the data were processed

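RNA-seq was analysed for 18 mouse heart libraries in 6 groups of 3, defined by genotype and treatment labels, with replicates numbered in accession order. Poly(A) RNA was prepared with TruSeq V2, per the labels' protocols, and Bowtie2, Cufflinks and the mm10 build are named in the submitters' processing notes, without versions. The deposited values are FPKM made by the authors, so read depth is not known and no counting intervals are given. The authors' deposited comparison tables, with p-values and q-values, were used only where named. No authors' log2 fold changes were used.

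The 12587 genes that reached 1 FPKM in 3 libraries or more were kept. limma 3.58.1 in R 4.3.3 was fitted to log2(FPKM + 1) with 6 group means, a trended prior and robust variance, with Benjamini-Hochberg adjustment within each of 12 comparisons, and was first tested on simulated data. Alternatives were a pseudocount of 0.1 FPKM, no filter, median-of-ratios scaling, a constant prior, sample weights, only the groups compared, leaving out each library, and leaving out the library highest in atrial markers of each group. TPM scaling and the measure relative to the median structural subunit were added after the data were seen. Near copies were found with BLAST 2.17.0. One member is counted but not reported here by name. Full values were given for the named core subunits, every Ndufaf gene, Ndufab1, Ndufa4, Ndufa4l2 and the 5 structural subunits at either end of PTU+T3 against PTU. Those of Ndufs3 and Ndufs7 were given in cKO hearts only. Values of PTU against chow are given where a result turns on them. The members and lists were chosen with earlier results of these data known.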

Additional observations from a re-analysis of the deposited data

How the results depend on the processing

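Among treatment comparisons, T3 after PTU in cKO was the steadiest when 1 library was left out. It called 25 structural subunits and 6 assembly factors, and 21 to 28 and 6 to 7 in those fits. In WT the 13 and 5 became 6 to 15 and 4 to 6, and the structural count was 6 without the library highest in atrial markers of each group and 7 with only the groups compared. PTU against chow called 11 and 3 in cKO, 0 to 18 and 3 to 4 when 1 library was left out, with 6 structural without a filter, 17 with sample weights, 1 with only the groups compared, and 0 structural and 1 assembly without the atrial libraries. In WT it called 1 and 3, 0 to 2 and 1 to 3 when 1 library was left out. There the structural count was 0 without a filter, without the atrial libraries or with only the groups compared, 2 with median-of-ratios scaling, and 7 with sample weights or TPM scaling; the assembly count was 1 without a filter and 0 without the atrial libraries. T3 against chow called 5 and 4 in cKO, 2 to 7 and 1 to 5 when 1 library was left out, with 11 structural with sample weights (10 higher and 1 lower), 14 with TPM scaling, 9 with only the groups compared, and 0 of either class without the atrial libraries. In WT it called 2 and 2, 0 to 2 and 1 to 3 when 1 library was left out, with 1 structural without a filter, 6 with TPM scaling, and 0 without the atrial libraries or with only the groups compared, and 1 assembly factor without a filter or with only the groups compared. Genotype and interaction counts stayed at 0 in every alternative run. Relative to the median structural subunit, T3 called 10 to 11 higher and 8 to 9 lower in cKO and 10 to 13 higher and 5 to 10 lower in WT when 1 library was left out, with assembly factors 3 to 5 higher and 0 to 1 lower in cKO and 4 to 5 higher and 0 to 1 lower in WT. Without the atrial libraries this gave 7 subunits higher, 3 factors higher and 0 lower in cKO, and 5 subunits higher, 2 lower and 0 factors lower in WT. The atrial libraries are those highest in atrial markers of each group, and leaving them out also left fewer libraries in every group. The cause of these shifts was not tested. Of 2782 alternative values, 2544 kept direction and side of the threshold, 151 lost the call, 41 gained it and 46 changed sign. With sample weights, these uncalled log2 fold changes turned sign: in PTU against chow in WT, Ndufv1 (-0.0096) and Ndufb11 (-0.0271); in PTU+T3 against PTU in WT, Ndufa2 (0.0227). With TPM scaling, these uncalled log2 fold changes turned sign: in PTU against chow in WT, Ndufa4l2 (-0.0123); in PTU against chow in cKO, Ndufa6 (0.0086), Ndufa11 (0.0148) and Ndufa13 (0.0199); in PTU+T3 against PTU in WT, Ndufs1 (-0.0383); in PTU+T3 against PTU in cKO, Ndufaf2 (-0.0679), Ndufa1 (-0.20), Ndufa13 (-0.14), Ndufb11 (-0.0509) and Ndufa7 (-0.0205). Without the library highest in atrial markers of each group, these uncalled log2 fold changes turned sign: in PTU against chow in WT, Ndufv1 (-0.0896), Ndufs7 (-0.0471) and Ndufb11 (-0.0102); in PTU+T3 against PTU in WT, Ndufs1 (-0.0249); in PTU+T3 against PTU in cKO, Ndufv1 (0.0383). Leaving out 1 library turned the sign of others, whose values over 18 such fits ran, in PTU against chow in WT, Ndufs1 from -0.23 to 0.0282, Ndufa4l2 from -0.11 to 0.0968, Ndufv1 from -0.0931 to 0.15, Ndufs7 from -0.0386 to 0.19, Ndufb11 from -0.0623 to 0.11, Ndufb4 from -0.0762 to 0.20, Ndufs3 from -0.22 to 0.0359 and Ndufaf6 from -0.19 to 0.0945; in PTU against chow in cKO, Ndufa13 from -0.26 to 0.0039; in PTU+T3 against PTU in WT, Ndufs1 from -0.0745 to 0.16, Ndufa2 from -0.23 to 0.0756, Ndufa1 from -0.13 to 0.0599 and Ndufa13 from -0.20 to 0.0111; in PTU+T3 against PTU in cKO, Ndufv1 from -0.12 to 0.0813, Ndufa1 from -0.0339 to 0.18 and Ndufa13 from -0.0014 to 0.27.

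Calls with only the groups compared were not run for the averaged genotype comparison. No paired analysis was possible because the labels give the groups no shared replicate numbers. FPKM carry no read totals, so what depth limits is not known.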
